A study of Mus musculus with 6 samples.

Results

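The 35 genes described here act in DNA replication and S phase, out of 37991 genes counted in mouse C2C12 cells. They were chosen by name, from knowledge of what their products do, but with earlier results of these data known. Each symbol matched 1 Ensembl identifier in the count files. C2C12 is a myoblast line from C3H mice that leaves the cell cycle and fuses into myotubes when serum is reduced. All cells had been transduced with a lentiviral short hairpin, directed against luciferase in the control (shCtrl) and against Kap1 in the knockdown (shKap1). Kap1, encoded by Trim28, is a scaffold that brings chromatin modifiers to DNA-bound factors. The groups were proliferating myoblasts in fetal calf serum (MB), with 2 libraries of MB_shCtrl and 2 of MB_shKap1, and cells after 48 hours in horse serum with insulin, transferrin and selenium (MT), with 1 library of MT_shCtrl and 1 of MT_shKap1. Polyadenylated cytoplasmic RNA was sequenced, and the design asks how Kap1 loss bears on expression in each state. Whether the MB replicates were separate cultures is not stated, and p-values here measure no more than the spread between these libraries, which may be technical.

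Replication starts where the origin recognition complex, with Cdc6 and Cdt1, loads the ring of Mcm2 to Mcm7 onto DNA. Cdc45 and the GINS proteins then turn that ring into a moving helicase, the polymerases copy the strands, and the sliding clamp Pcna holds them in place. Many of these genes are switched on before S phase by E2F factors and are shut off, through the Rb family of pocket proteins, when myoblasts stop dividing to form muscle.

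Total counts on genes ran from 36247530 to 49839994 per library, so 3 counts, the lowest level taken as detected, stood for 0.0602 to 0.0828 CPM (the count scaled to the library's total on genes). Trim28 was at 587 and 417 CPM in MB_shCtrl, 152 and 101 in MB_shKap1, 382 in MT_shCtrl and 122 in MT_shKap1, lower in each knockdown library than in each control library. The 12 muscle markers together held 398 to 1077 CPM in MB, 8043 in MT_shCtrl and 901 in MT_shKap1. The sum of the knockdown library at 48 hours thus lay within the MB range, but Des alone held 552 CPM of it. Gene by gene, 12 of the 12 markers were higher in MT_shKap1 than in MB_shKap1 replicate 1 (median log2 difference 2.73). Against replicate 2, 8 were higher and 4 lower (median 0.35). Blood, epithelial, endothelial and adipocyte marker lists each summed to at most 3.17 CPM, and Adgre1, Adipoq and Lep had no count in any library. The replicates stood apart: across the 16472 genes tested, the difference between replicate 2 and replicate 1 in MB_shCtrl correlated with that in MB_shKap1 (Pearson's r = 0.717 across genes, which are not independent). The file names of replicate 1 and of both MT libraries carry a shared mark, absent from those of replicate 2, whose meaning the sources used here do not give.

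Counts were fitted with edgeR's quasi-likelihood test over all 6 libraries, with p-values adjusted by Benjamini-Hochberg over all 16472 genes and a threshold of 0.05. Without a term for the replicate, this test called no gene in any comparison (0 of 16472, 0%). With the replicate as a block, between 3.84% and 44.9% of genes were called. Both MT libraries were placed with replicate 1 because of the mark. Differentiation changes in this fit are therefore measured from the replicate 1 level of MB. With 1 library in each MT group, contrasts with MT rest on an assumption that nothing in MT itself can check. Without the block, it is that a lone library varies as the MB libraries do. With the block, it is that a lone MT library varies only as the MB libraries do after the replicate difference is taken out. The spread fitted between libraries (biological coefficient of variation) was 32.9% without the block and 9.74% with it. Below, a gene "rose" or "fell" only where it passed in the fit with the block, and log2 changes and standard errors (SE) come from that fit unless another is named.

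Every one of the 35 replication genes was lower after 48 hours of differentiation, in control and in knockdown cells. For all 35, both MT libraries lay below all 4 MB libraries in CPM, which held for 20.1% of all genes tested. Within control cells, MT_shCtrl was below both MB_shCtrl libraries for 35 of 35 genes (41.3% of all genes tested), and within knockdown cells MT_shKap1 was below both MB_shKap1 libraries for 35 of 35 (30.5%). In control cells 34 of the 35 genes fell and 0 rose, beside 22.6% of all genes called lower, 22.3% called higher and 44.9% in either direction. In knockdown cells 33 of the 35 fell and 0 rose, beside 16.5%, 16.6% and 33.1%. Without the block, edgeR called 0 of the 35 in either comparison. Unadjusted p in that fit was under 0.05 for 26 in control and 25 in knockdown cells, beside 4174 and 2512 of all 16472 genes. DESeq2 without the block called 22 and 20, each of them lower. DESeq2 called 14.5% and 5.12% of all genes in these comparisons, 6.63% and 2.94% as lower. The median log2 change of the genes was -1.03 in control and -1.07 in knockdown, beside -0.0131 and 0.0165 over all genes tested. In bulk RNA, fewer cells in S phase and less RNA per cell cannot be told apart.

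Summed over the 35 genes, CPM stood at 4478 and 3772 in MB_shCtrl, 4043 and 3528 in MB_shKap1, 2112 in MT_shCtrl and 1939 in MT_shKap1. The MT_shCtrl sum was 47.2% of MB_shCtrl replicate 1 and 56% of replicate 2, and the MT_shKap1 sum was 48.0% and 55.0% of its MB replicates. The MT sums were thus closer to each other than either was to any MB sum.

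**Figure D1:**
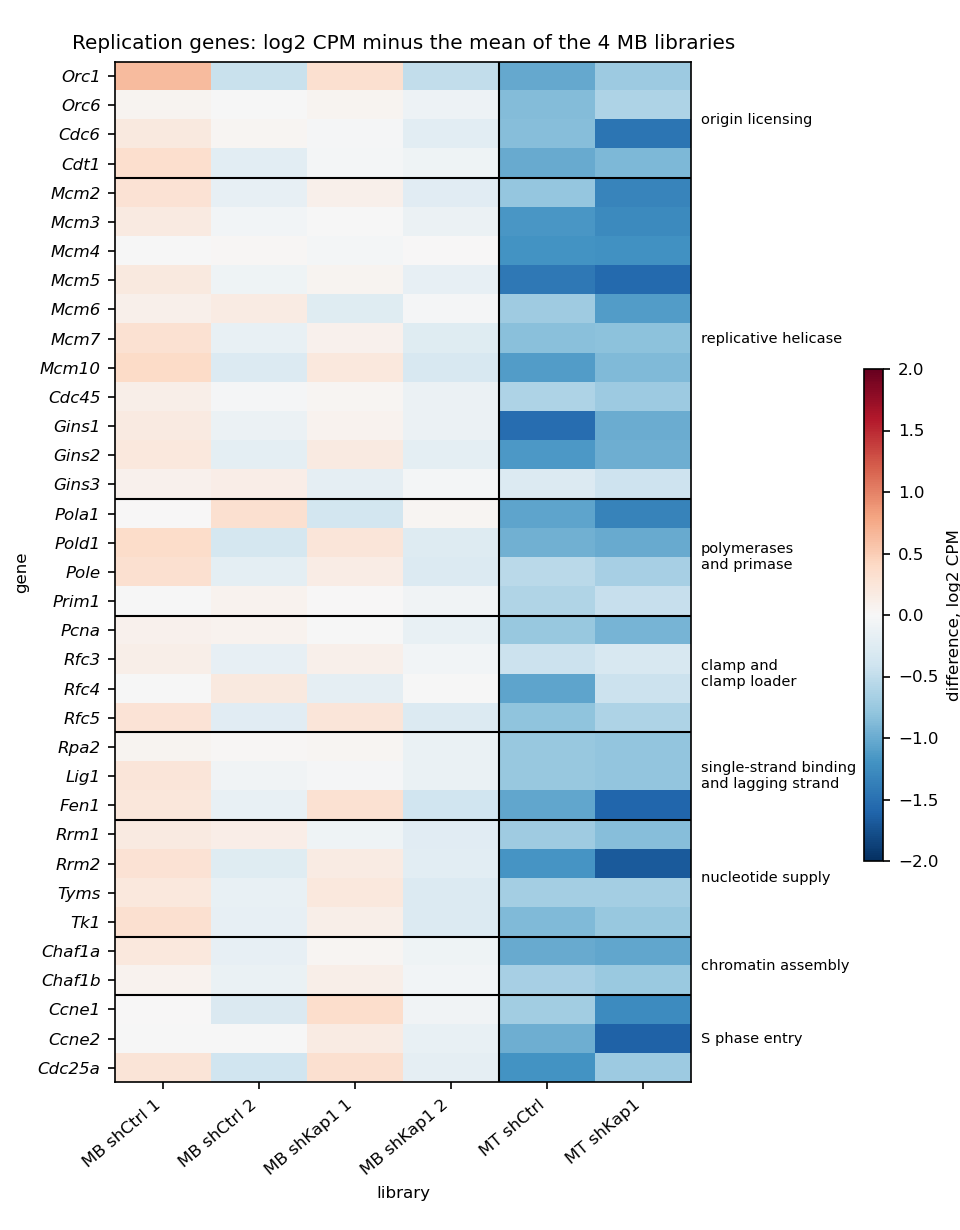
Heat map of the 35 genes (rows, grouped by role) in the 6 libraries (columns), coloured by log2 CPM minus the gene's mean over the 4 MB libraries. Both MT columns are below 0 for all 35 genes, and the MB_shCtrl replicate 1 column is mostly above replicate 2.

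Because these genes moved together, the DNA before their starts was searched for short words of factors known for cell cycle genes. Promoters were taken from a RefSeq table of the GRCm38.p6 build, which has entries for 30 of the 35 genes, and the 250 bases before the annotated start were read on both strands. The E2F words searched were TTTCCCGC, TTTCGCGC, TTTGCCGC and TTTGGCGC, which can overlap each other. The word CCAAT is bound by the general activator NF-Y, and the CHR words TTTGAA and TTTCGAA are known from genes of mitosis. An E2F word lay before 9 of the 30 genes (30%), beside 3.68% of the 11024 tested genes with an entry and 2.16% of all 27025 genes in the table. CCAAT lay before 19 of the 30 (63.3%), beside 40.4% and 37.5%. A CHR word lay before 5 of the 30 (16.7%), beside 13.8% and 18.8%. With the 50 bases after the start included, 13 of the 30 genes held an E2F word, and 4.4% of the tested genes did. Other replication genes hold these words too: of 42 further genes of the pathway with an entry, 6 (14.3%) had one in the 250 bases and 12 (28.6%) with the 50 after the start. The E2F matches are shown with their neighbours because the share of these promoters that hold one was furthest from that of the tested genes among the 3 kinds of word; capitals mark the word, or the joined words where they overlap, read 5′ to 3′ on the strand of the gene.
Cdc25a (chr9:109875502-109875529, + strand): gtgaattccgTTTGGCGCcaactaggaa
Cdc6 (chr11:98908003-98908030, + strand): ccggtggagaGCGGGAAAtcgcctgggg
Gins3 (chr8:95633508-95633535, + strand): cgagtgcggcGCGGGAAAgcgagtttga
Mcm5 (chr8:75109346-75109377, + strand): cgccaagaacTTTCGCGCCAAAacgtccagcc
Mcm6 (chr1:128359794-128359825, - strand): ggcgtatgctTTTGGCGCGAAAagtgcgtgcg
Mcm6 (chr1:128359735-128359762, - strand): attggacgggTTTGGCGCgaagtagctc
Mcm7 (chr5:138172031-138172058, - strand): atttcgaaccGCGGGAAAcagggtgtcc
Orc1 (chr4:108579417-108579444, + strand): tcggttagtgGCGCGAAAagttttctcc
Pola1 (chrX:93632276-93632303, - strand): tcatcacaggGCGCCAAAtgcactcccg
Rfc3 (chr5:151651209-151651228, - strand): cgtcgcacgcTTTCGCGCtc

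All windows come from GRCm38.p6, while the counts were made on mm9, and no coordinate was carried between them. Before Mcm5 the words TTTCGCGC and TTTGGCGC, on opposite strands, overlap in a run that starts 153 bases before the start, and before Mcm6 a like pair starts at 110 bases with a further word at 47. The word of Mcm7 starts at 165 bases, and those of the other 6 genes within 138. The median GC content of the 250 bases was 57.4% over the 34 entries of these genes and 59.2% over the tested genes. The median control differentiation change was -1.03 over the 9 genes with one and -1.01 over the 21 without, and no test was run on this split. The whole 250 bases are given for Mcm6, which had the most matches to the 3 kinds of word (5), for Mcm5 (4, as had Gins3 and Mcm7, which hold fewer E2F words), and for Ccne1, 1 of 9 genes with none; capitals mark E2F and CCAAT words, and no CHR word is present.
Mcm6 (chr1:128359706-128359955, - strand): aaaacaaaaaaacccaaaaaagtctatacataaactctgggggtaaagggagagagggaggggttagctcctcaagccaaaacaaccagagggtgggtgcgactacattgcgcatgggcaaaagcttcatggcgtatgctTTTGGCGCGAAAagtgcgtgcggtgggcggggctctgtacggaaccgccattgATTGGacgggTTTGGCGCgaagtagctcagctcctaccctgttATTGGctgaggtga
Mcm5 (chr8:75109259-75109508, + strand): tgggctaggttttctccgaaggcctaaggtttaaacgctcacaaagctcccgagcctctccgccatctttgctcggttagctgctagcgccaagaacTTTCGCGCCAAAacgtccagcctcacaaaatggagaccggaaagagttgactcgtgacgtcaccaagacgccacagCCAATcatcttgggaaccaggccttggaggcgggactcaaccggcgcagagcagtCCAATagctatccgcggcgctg
Ccne1 (chr7:38107491-38107740, - strand): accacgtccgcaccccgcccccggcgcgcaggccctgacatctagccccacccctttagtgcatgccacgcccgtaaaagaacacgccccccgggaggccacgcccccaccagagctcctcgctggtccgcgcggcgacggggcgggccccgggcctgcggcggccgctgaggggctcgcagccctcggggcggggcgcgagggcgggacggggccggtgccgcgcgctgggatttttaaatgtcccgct
A match is a run of letters and says nothing of binding, and the absence of one says only that these letters are not in this window.

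**Figure D2:**
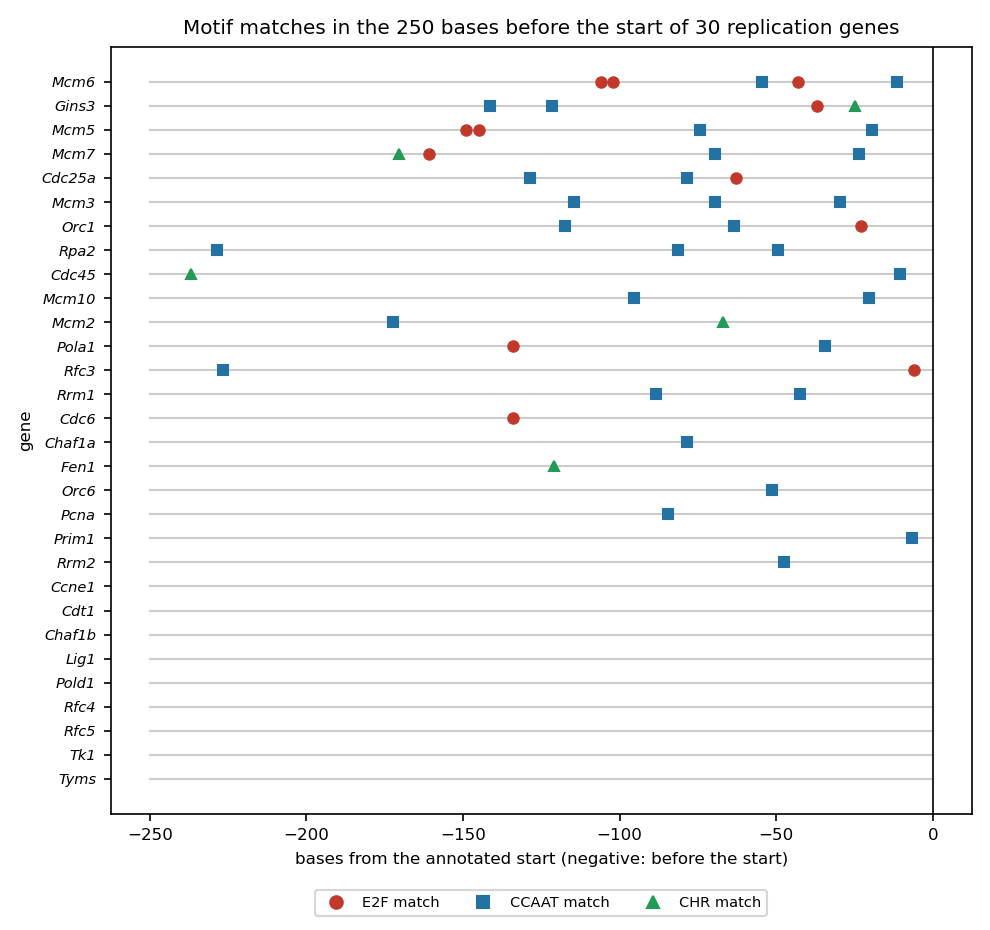
Positions of E2F (circles), CCAAT (squares) and CHR (triangles) words in the 250 bases before the annotated start (x axis, bases) of 30 replication genes (rows; the entry with the most matches where a gene has several). Circles appear in 9 rows, squares in 19 and triangles in 5, and 9 rows are empty.

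Genes that license origins fell in both arms, 4 of 4 in each. Orc1, an ATP-binding subunit of the origin recognition complex, had the largest control change of them. It stood at 26.8 and 12.7 CPM in MB_shCtrl, 21.6 and 12.3 in MB_shKap1, 8.49 in MT_shCtrl and 10.5 in MT_shKap1. Both MT values were under all MB values, but replicate 2 of MB lay nearer to them than to replicate 1. The log2 change was -1.57 in control (SE 0.182, adjusted p = 7.66e-05, edgeR) and -1.19 in knockdown. Against MB replicate 2 alone, with no test, it was smaller, at -0.58 in control and -0.35 in knockdown. Orc6, another subunit of the complex, changed least, from 54.9 and 52.4 CPM to 29.2 in control and from 55.2 and 49.4 to 34.3 in knockdown (log2 changes -0.91 and -0.74). Its MB replicates were close, and MT was well below them. Cdc6, which loads the helicase, went from 54.6 and 48.6 CPM in MB_shCtrl to 26.4 in MT_shCtrl, and from 46.9 and 41.1 in MB_shKap1 to 17.2 in MT_shKap1. Its log2 change was -1.03 in control and -1.52 in knockdown (SE 0.132, adjusted p = 4.05e-05, edgeR). Cdt1, the partner of Cdc6 in loading, fell by 1.20 and 1.07 on the log2 scale.

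Of the 11 genes of the replicative helicase, 10 fell in each arm and Gins3 did not pass in either. The core ring genes Mcm2 to Mcm7 had log2 changes between -1.58 and -0.76 in control and between -1.70 and -0.99 in knockdown. Mcm5, whose E2F pair is shown above, was at 242 and 199 CPM in MB_shCtrl, 219.7 and 189 in MB_shKap1, 78.8 in MT_shCtrl and 72.2 in MT_shKap1. Both MT libraries were far under the MB range of this gene and close to each other, with log2 changes of -1.58 in control (SE 0.13, adjusted p = 7.78e-06, edgeR) and -1.70 in knockdown (SE 0.132, adjusted p = 1.92e-05, edgeR). Mcm6 stood at 265 and 275 CPM, then 149.9, in control and at 208 and 241, then 114, in knockdown. Gins1, a subunit of the GINS complex, had the largest control change of all 35 genes, from 23.8 and 19.5 CPM to 7.36 (log2 change -1.64, SE 0.169, adjusted p = 3.39e-05, edgeR), and went from 22.1 and 19.4 to 10.6 in knockdown (-1.17). Gins3, a further GINS subunit, had the smallest, from 17.7 and 18.4 CPM to 13.8 in control and from 14.7 and 16.2 to 12.6 in knockdown. These are log2 changes of -0.31 (adjusted p = 0.144, edgeR) and -0.33 (adjusted p = 0.157, edgeR). Mcm10, which helps to start the helicase, fell by 1.44 and 1.21 and Cdc45 by 0.71 and 0.84 on the log2 scale in control and knockdown.

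The polymerase and primase genes fell in both arms, 4 of 4 each. Pold1, the catalytic subunit of lagging-strand polymerase delta, was at 86.1 and 52.8 CPM in MB_shCtrl, 79.0 and 56.3 in MB_shKap1, 34.4 in MT_shCtrl and 33.2 in MT_shKap1. The MT libraries nearly coincided, and the log2 changes were -1.24 and -1.38. Pola1, the catalytic subunit of polymerase alpha, went from 88.8 and 109.6 CPM to 42.3 in control and from 68.3 and 90.4 to 35.1 in knockdown (-1.02 and -1.07). It was 1 of the few genes higher in replicate 2 than in replicate 1. Prim1, the catalytic primase, changed least, from 75.9 and 80.2 CPM to 50.2 and from 76.5 and 72.8 to 55.6 (-0.61 and -0.50), and Pole, of leading-strand polymerase epsilon, fell by 0.81 and 0.92 on the log2 scale.

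Pcna, the sliding clamp, stood at 333 and 327 CPM in MB_shCtrl, 313 and 282 in MB_shKap1, 186 in MT_shCtrl and 165 in MT_shKap1. Its log2 changes were -0.85 in control (adjusted p = 0.000499, edgeR) and -0.97 in knockdown. Pcna-ps2, a pseudogene by its name, was counted at 23.0 to 45.5 CPM and can share reads with Pcna, so the split between them is uncertain. The genes Rfc3, Rfc4 and Rfc5 encode subunits of the loader that opens the clamp. Rfc5 went from 74.5 and 52.8 CPM to 35.4 in control and from 72.8 and 51.0 to 40.5 in knockdown (log2 changes -1.05 and -0.92). Rfc3 went from 55.99 and 46.5 CPM to 38.4 and from 55.6 and 49.99 to 41.7 (-0.49 and -0.52), the smallest change of those that passed in control. Rfc4 was the exception. It was at 32.3 and 36.9 CPM in MB_shCtrl, 28.5 and 32.03 in MB_shKap1, 15.6 in MT_shCtrl and 24.0 in MT_shKap1. Control cells thus lost more than the spread of the MB libraries (log2 change -1.03, SE 0.134, adjusted p = 0.000165, edgeR), while the knockdown change of -0.32 did not pass (SE 0.131, adjusted p = 0.0848, edgeR).

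Rpa2, part of the protein that coats single-stranded DNA, went from 57.02 and 55.8 CPM to 32.3 in control and from 56.3 and 49.8 to 31.5 in knockdown (log2 changes -0.83 and -0.88). Lig1, which seals nicks between lagging-strand fragments, went from 173 and 138 CPM to 86.1 and from 143 and 132 to 84.3 (-0.93 and -0.89). For both genes the MT libraries nearly coincided. Fen1, the flap nuclease of fragment joining, was low throughout, at 5.72 and 4.43 CPM, then 2.39, in control and at 6.07 and 3.71, then 1.63, in knockdown (-1.32 and -1.90). In GENCODE M21, 78.8% of its exonic bases are overlapped on the other strand by the predicted gene Gm10143. Because the strand setting of the counting is not given, the level of Fen1 is uncertain. Exons of 13 of the 35 genes overlap another counted gene, and for 7 genes an overlap exceeds 10% of the exonic bases, with Gins2 (67.3%, by Gse1) and Chaf1a (52.5%, by Ubxn6) next after Fen1.

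Genes for nucleotide supply fell in both arms, 4 of 4 each. Rrm2, the subunit of ribonucleotide reductase that limits deoxynucleotide synthesis in S phase, was at 456 and 314 CPM in MB_shCtrl, 419.7 and 323 in MB_shKap1, 165 in MT_shCtrl and 117 in MT_shKap1. Its knockdown change of -1.97 was the largest of the 35 (SE 0.142, adjusted p = 1.17e-05, edgeR), and its control change was -1.40. Rrm1, the partner subunit, went from 345 and 335 CPM to 186 in control and from 287 and 261 to 169 in knockdown (-0.89 and -0.82). Tyms, thymidylate synthase, fell by 0.90 and 0.94 on the log2 scale, and Tk1, thymidine kinase, had changes of -1.15 and -0.98. Chaf1a and Chaf1b, subunits of the factor that places histones behind the fork, fell in both arms. Chaf1a went from 118 and 91.1 CPM to 50.9 in control and from 105 and 96.4 to 49.8 in knockdown (-1.12 and -1.22). Chaf1b went from 58.0 and 50.4 CPM to 34.9 and from 59.8 and 53.4 to 33.0 (-0.70 and -0.95).

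The genes for S phase entry fell in both arms, 3 of 3 each, but with different sizes. Cdc25a, the phosphatase that activates Cdk2, was at 56.3 and 35.8 CPM, then 20.5, in control and at 58.8 and 41.8, then 28.6, in knockdown (log2 changes -1.39 and -1.16). Ccne1, cyclin E1, the partner of Cdk2, was at 51.0 and 41.7 CPM in MB_shCtrl, 64.7 and 48.2 in MB_shKap1, 31.3 in MT_shCtrl and 21.2 in MT_shKap1. Within each MB replicate the knockdown value was above the control value, and at 48 hours it was below, with changes of -0.71 in control (SE 0.128, adjusted p = 0.00132, edgeR) and -1.65 in knockdown (SE 0.133, adjusted p = 2.54e-05, edgeR). Ccne2, cyclin E2, was at 58.0 and 57.9 CPM, then 29.6, in control and at 65.5 and 52.9, then 19.0, in knockdown (-1.02 and -1.79).

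**Figure D3:**
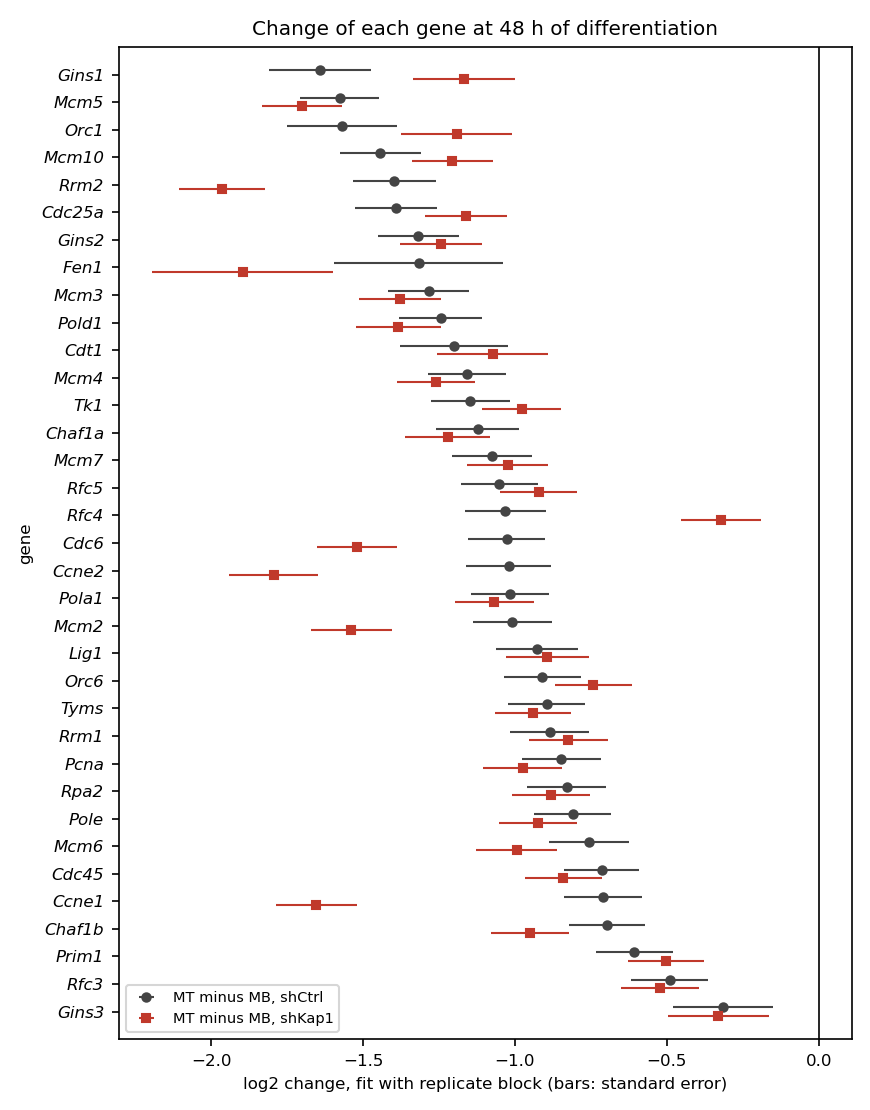
Log2 change between MB and MT (x axis) of each of the 35 genes (rows, ordered by the control value) in control cells (grey circles) and knockdown cells (red squares), with standard errors from the fit with the replicate block. All points are below 0, Gins3 is nearest to 0 in control, and Ccne1, Ccne2 and Rfc4 show the widest gaps that passed the test of the difference.

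In proliferating cells, none of the 35 genes passed for knockdown against control. With the block, edgeR called 0 of 35 (3.84% of all genes were called, 2.5% higher and 1.34% lower). Unadjusted p in that fit was under 0.05 for 6 of the 35, beside 2800 of all 16472 genes, which is about the same share. Without the block, edgeR called 0, with unadjusted p under 0.05 for 0, beside 454 of all genes. DESeq2 called 0, with unadjusted p under 0.05 for 1, beside 417 of all genes (0.316% of all genes were called by DESeq2). Log2 changes ran from -0.36 for Pola1 (SE 0.0938, adjusted p = 0.0706, edgeR) to 0.25 for Ccne1 (SE 0.0944, adjusted p = 0.209, edgeR), with standard errors of 0.0923 to 0.199 and a median of -0.12, beside -0.00687 over all genes. Rrm1 had a value of -0.34 (adjusted p = 0.0869, edgeR) and lay lower in both knockdown libraries than in both controls. Such a lack of overlap, with knockdown below control, was seen for 6 of the 35 genes and 11% of all genes tested, and the opposite for 0 and 15.6%. The median of the genes was -0.17 within replicate 1 and -0.0899 within replicate 2. Without MB_shCtrl replicate 1, the fit without a block gave a median of 0.0523. That fit sets both knockdown libraries against replicate 2 of the control alone, and replicate 2 was the lower one for most of the genes.

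The MB replicates also differed from each other. The genes were lower in replicate 2 than in replicate 1 for 28 of 35 in MB_shCtrl and 30 of 35 in MB_shKap1, beside 49.5% and 49.6% of all genes, with medians of -0.27 and -0.15 on the log2 scale. Orc1 had the widest gap, -1.06 in control and -0.77 in knockdown. Over the same libraries the muscle differentiation factor Myog stood at 1.26 and 32.9 CPM in MB_shCtrl and at 0.686 and 14.1 in MB_shKap1, higher in each replicate 2, and its part in the difference between replicates was not tested.

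At 48 hours, with the block, 6 of the 35 genes were called lower in the knockdown library than in the control library and 1 was called higher. Of all genes, 11.2% and 9.09% were called lower and higher and 20.3% in all. Taken in both directions, calls were thus about as frequent among the 35 as over all genes. Those that fell were Ccne2 (log2 change -0.78, SE 0.152, adjusted p = 0.00555, edgeR), Cdc6 (-0.75, adjusted p = 0.00405), Ccne1 (-0.70, adjusted p = 0.00615), Mcm2 (-0.68, adjusted p = 0.00638), Rrm2 (-0.64, adjusted p = 0.0113) and Mcm6 (-0.54, adjusted p = 0.0231). Mcm2, a ring subunit of the helicase, was at 245 and 179.9 CPM in MB_shCtrl and 217 and 171 in MB_shKap1, then at 117 in MT_shCtrl and 80.4 in MT_shKap1. The gene that rose was Rfc4 (0.49, SE 0.142, adjusted p = 0.0353, edgeR). Exons of Rfc4 overlap those of Eif4a2, a translation initiation helicase gene on the other strand, over 12.7% of their bases. Eif4a2 stood at 490 CPM in MT_shCtrl and 424 in MT_shKap1. For Ccne2 17.4% of the exonic bases is overlapped by Ints8, at 58.1 CPM in MT_shCtrl and 63.3 in MT_shKap1. Whether these overlaps bear on the counts of Rfc4 and Ccne2 was not tested. Without the block, edgeR called 0 of the 35 and DESeq2 0, while DESeq2 called 2.23% of all genes. Unadjusted p was under 0.05 for 2 and 3 of the 35, beside 1383 and 1374 of all 16472 genes.

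The shared change at 48 hours was small: the median over the 35 genes was -0.17, beside 0.018 over all genes, and 22 of the 35 were lower in CPM in MT_shKap1 than in MT_shCtrl, beside 37.3% of all genes. Scaling by total count moved the median of all genes to 0.155 and that of the 35 genes to -0.0357. Under that scaling with the block, 5 genes were called lower and 2 higher in place of 6 and 1: Mcm6 was not called, and Cdc25a was called higher (0.48). The share of all genes called under that scaling is not given. Genes close to equal in the pair of MT libraries included Prim1 (log2 difference 0.01, SE 0.134), Rfc3 (-0.02, SE 0.136) and Tk1 (-0.02, SE 0.135).

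**Figure D4:**
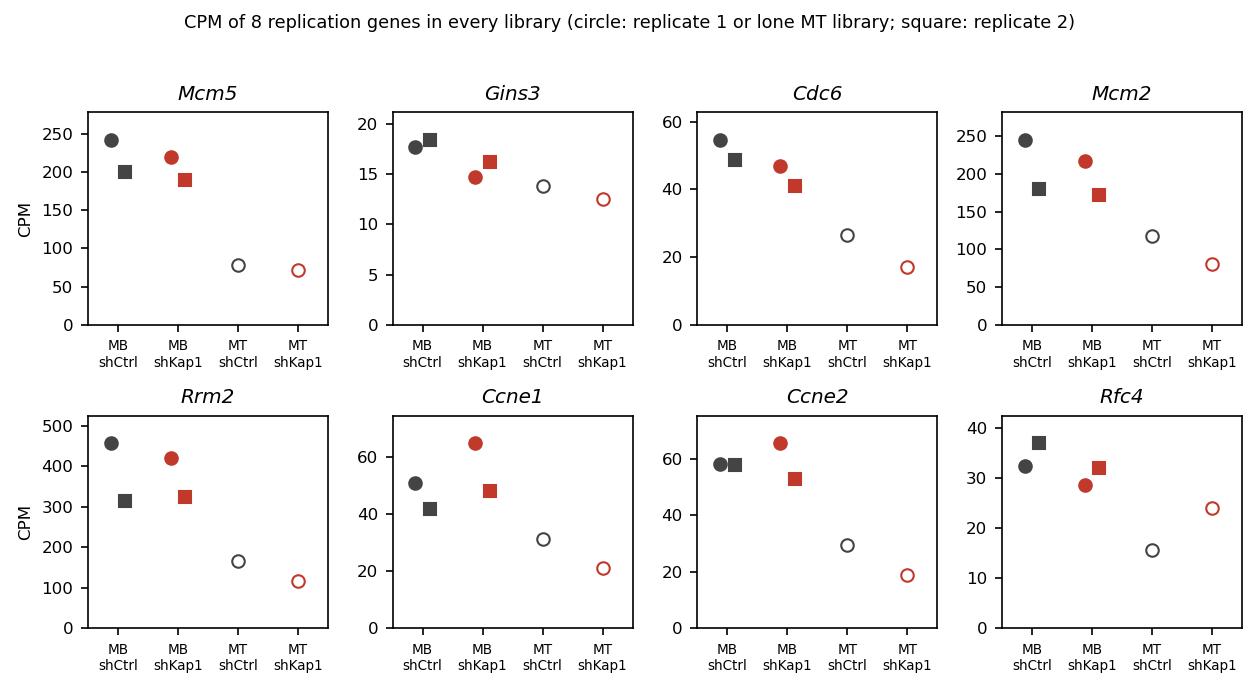
CPM (y axis, from 0) of 8 replication genes in every library, by group (x axis); grey is control, red is knockdown, circles are replicate 1 or the lone MT library (open) and squares replicate 2. MT_shKap1 lies under MT_shCtrl for Cdc6 (17.2 and 26.4), Ccne1 (21.2 and 31.3) and Ccne2 (19.0 and 29.6), and above it for Rfc4 (24.0 and 15.6).

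Whether the knockdown effect differed between MT and MB was tested by the interaction, the MT effect minus the MB effect. With the block 3 of the 35 genes passed, beside 10.5% of all genes (3.82% higher, 6.63% lower): Ccne1 (-0.94, SE 0.167, adjusted p = 0.00575, edgeR) and Ccne2 (-0.77, SE 0.183, adjusted p = 0.024, edgeR) with a lower and Rfc4 (0.71, SE 0.172, adjusted p = 0.0266, edgeR) with a higher value in MT. Rrm2 (-0.57, adjusted p = 0.0659, edgeR), Mcm2 (-0.53, adjusted p = 0.0717, edgeR) and Cdc6 (-0.49, adjusted p = 0.0922, edgeR) did not pass. For the other 29 genes adjusted p was higher still. The median of the 35 was -0.0506, and scaling by total count with the block turned it to 0.056 and left Ccne1 and Rfc4 called. Without the block, edgeR called 0 of the 35 and DESeq2 0, while DESeq2 called 1.01% of all genes. Unadjusted p was under 0.05 for 1 and 2 of the 35, beside 825 and 886 of all 16472 genes.

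A further 57 genes of the replication pathway, listed by name and not among the 35, mostly fell with differentiation too. Of these, 51 fell and 1 rose in control (Cdk2, by 0.61 on the log2 scale), beside 22.6% and 22.3% of all genes. In knockdown 42 fell and 0 rose, beside 16.5% and 16.6%. Among the 57, edgeR without the block called 0 in any comparison. DESeq2 without it called 33 and 22 in the 2 differentiation comparisons, all lower, beside 6.63% and 2.94% of all genes. Wdhd1, which links polymerase alpha to the helicase, had log2 changes of -1.40 and -1.50 in control and knockdown, and Exo1, a repair exonuclease, of -1.45 and -1.41. At 48 hours 2 of the 57 were lower in knockdown and 4 higher, beside 11.2% and 9.09% of all genes. Those higher were Dbf4, Gmnn, Pold4 and Rnaseh2a. Dbf4, the activating partner of the kinase Cdc7, stood at 42.2 CPM in MT_shCtrl and 102 in MT_shKap1 (log2 change 1.14, SE 0.135, adjusted p = 0.000285, edgeR). Gmnn, geminin, which blocks Cdt1 after origins have fired, stood at 21.3 and 48.2 CPM (1.04, adjusted p = 0.000654). Those lower were Cdk2, the kinase bound by cyclin E, at 92.2 and 50.9 CPM (-0.99, adjusted p = 0.000602, edgeR), and Dna2, a flap nuclease (-0.70, adjusted p = 0.0207).

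Mitosis and cytokinesis genes, a list of 29, are given beside the replication genes because both rise and fall with division. In control cells, with the block, 29 of 29 fell (median -1.47), beside 22.6% of all genes. In knockdown 25 of 29 did (median -0.62), beside 16.5%. At 48 hours 20 of the 29 were higher in the knockdown library and 0 lower, beside 9.09% and 11.2% of all genes. In MB the knockdown change was below 0 for 29 of 29 (median -0.25), with 3 called lower, beside 1.34% of all genes. Within replicate 1 the difference was below 0 for 29 of 29 (median -0.39), beside 51.3% of all genes. Within replicate 2 it was below 0 for 23 of 29 (median -0.12), beside 50.2%. The interaction, which holds both the MB and the MT differences, passed for 23 of the 29, beside 10.5% of all genes. Each was higher in MT. Of the 29, edgeR without the block called 0 for knockdown in MT and the interaction. Unadjusted p in that fit was under 0.05 for 11 and 17, beside 1383 and 825 of all 16472 genes. DESeq2 without the block called 2 and 3, beside 2.23% and 1.01% of all genes. For knockdown in MB, edgeR and DESeq2 without the block each called 0. Their summed CPM in MT was 32.8% and 36.4% of the MB replicates in control and 69.7% and 62.9% in knockdown. Ccnb2, a mitotic cyclin, stood at 77.9 and 83.8 CPM in MB_shCtrl, 68.8 and 84.0 in MB_shKap1, 33.4 in MT_shCtrl and 84.6 in MT_shKap1. Ccnb2 and Nusap1, a spindle protein gene, were the exceptions of the list: MT_shKap1 lay below both MB_shKap1 libraries for the other 27 of 29 mitosis genes, as it did for all 35 replication genes. This held for 30.5% of all genes tested. No test of the difference between the lists was run. In the 250 bases before the start, a CHR word lay in 10 of 25 mitosis genes with an entry and 5 of 30 replication genes (13.8% of tested genes), and an E2F word in 1 of 25 and 9 of 30 (3.68%). With the 50 bases after the start, CHR words lay in 19 of 25 and 5 of 30 (15.5%) and E2F words in 1 of 25 and 13 of 30 (4.4%).

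Of 16 genes of cell cycle exit, 8 were lower and 1 higher in the knockdown library at 48 hours with the block. Of all genes, 11.2% were called lower and 9.09% higher. For this list, edgeR without the block called 0, with unadjusted p under 0.05 for 6, beside 1383 of all 16472 genes. DESeq2 called 4, each lower, beside 2.23% of all genes called in either direction. Rb1, the pocket protein that restrains E2F, stood at 125 CPM in MT_shCtrl and 56.4 in MT_shKap1, and Ccnd3, a D cyclin kept in muscle, at 276 and 88.9 (log2 changes -1.29 and -1.77 with the block). E2f2, an E2F factor, stood at 38.6 and 6.76 (-2.65 with the block; adjusted p = 0.719 by edgeR without it). Its MB replicates were also far apart, at 9.70 and 43.5 CPM in MB_shCtrl and 8.72 and 46.1 in MB_shKap1. Rb1 and Ccnd3 fell in the same pair of libraries in which most replication genes did not differ past the threshold, and their part in the replication values was not tested.

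**Figure D5:**
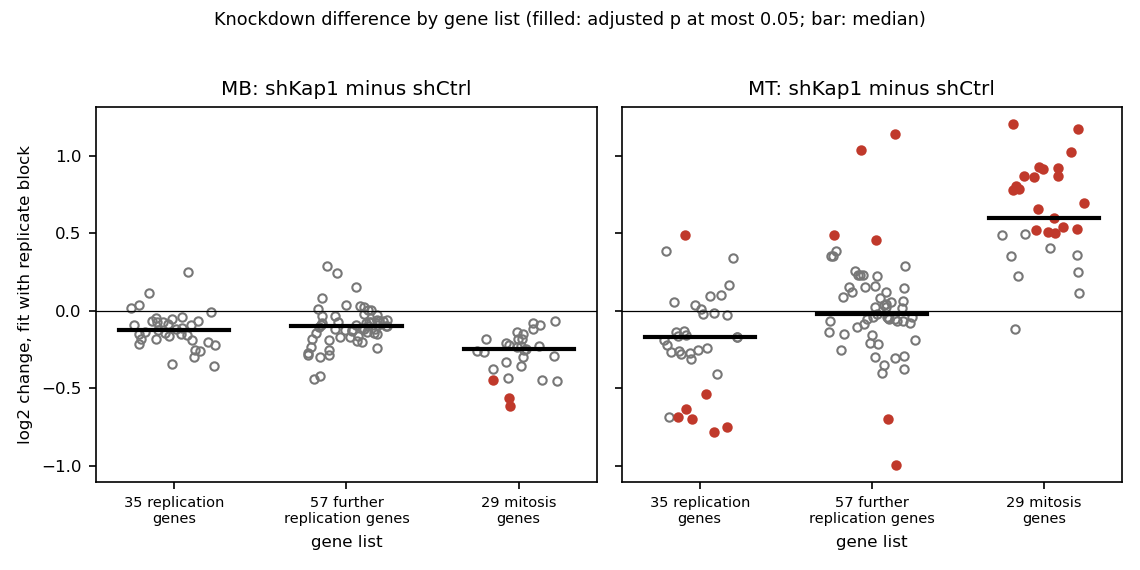
Log2 difference between knockdown and control (y axis, fit with the replicate block) in MB (left) and MT (right) for the 35 replication genes, 57 further replication genes and 29 mitosis genes (points; filled where adjusted p is at most 0.05; bars are medians). In MT the median is -0.17 for the 35 genes and 0.60 for the mitosis genes.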

How the data were processed

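The deposited values are whole-number counts of reads per Ensembl gene in 6 libraries, not normalized by the authors. Per the submitters' processing notes, TopHat2 2.0.11, HTSeq and the mm9 build were used; annotation release, counting mode and strand setting were not given in those sources. Lines that name no gene (no feature 5.18% to 8.07%, ambiguous 2.81% to 2.93% of all reads listed) were left out. Symbols came from GENCODE M21 by Ensembl identifier. CPM used raw totals on genes. The test was edgeR 4.0.16's quasi-likelihood test under R 4.3.3 (robust, TMM, filterByExpr, which kept all 35 genes), and DESeq2 1.42.0 as an alternative. Residual degrees of freedom were 2 without the replicate block and 1 with it, and the biological coefficient of variation was 32.9% and 9.74%. Differences within replicates are of log2 CPM with 0.5 counts added. The pairing rests on the titles' replicate numbers and the file name mark, and with only 2 pairs it could not be checked further than the correlation given above.

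The members and lists were chosen with earlier results of these data known. Libraries' values were printed, in each role, for the genes with the largest and smallest control differentiation change and the largest MB knockdown change; other genes are given where they passed a test or end a range, and from other lists among the 4 with the smallest p. Pcna, Mcm5, Myog and Nusap1, and ties among promoters (by E2F matches, then by the interaction's adjusted p), were chosen after values were seen. A planned ranking of genes by correlation with an Mcm gene is not given, because the libraries fall into an MB and an MT cluster. Alternatives were scaling, filters, DESeq2, the block and leaving out each MB library. The fit was also run on simulated data. These were drawn with the same block placement and an equal spread in every library, so they cannot check those assumptions for MT.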

Additional observations from a re-analysis of the deposited data

Results flagged for a closer look

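For 3 of the 35 genes the knockdown effect differed between the stages by the interaction test of the fit with the replicate block. Of all genes tested, 10.5% passed the same test, so the share among the 35 was no higher than over all genes. The MT effect minus the MB effect was -0.94 for Ccne1, -0.77 for Ccne2 and 0.71 for Rfc4 on the log2 scale. In MB the knockdown difference was 0.30 within replicate 1 and 0.19 within replicate 2 for Ccne1, and 0.13 and -0.15 for Ccne2. At 48 hours it was -0.70 and -0.78. Rfc4 was at -0.22 within each replicate of MB and at 0.49 in MT. None of these 3 genes passed edgeR's interaction test without the block, and DESeq2 with the block called Ccne1 alone (-0.98). Scaling by total count with the block called Ccne1 and Rfc4 but not Ccne2. Groups of 1 and 2 libraries are too small for a check of single libraries that stand apart.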

How the results depend on the processing

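The number of the 35 genes called depended on the replicate block in every comparison except knockdown in MB, where 0 were called under each alternative run. Without the block edgeR called 0 in each comparison. With the replicate block it called 34 for control differentiation, 33 for knockdown differentiation, 7 for knockdown in MT and 3 for the interaction. Of all genes, 44.9%, 33.1%, 20.3% and 10.5% were called in that fit. The block with total library size gave 34, 33, 7 and 2, and DESeq2 with the block 32, 31, 6 and 1. DESeq2 without it called 22 and 20 for the differentiation comparisons, beside 14.5% and 5.12% of all genes. With no filter on low counts, edgeR without the block called 3 for control differentiation. The share of all genes called is not given for total library size with the block, DESeq2 with the block or no filter. Those counts can therefore not be set beside it. Leaving out each MB library in turn was possible only without the block, where 0 genes were called with all libraries too, so it bears on no call made with the block, which would have 0 residual degrees of freedom left. In those fits the count stayed at 0, and medians ran from -1.03 to -0.80 (control differentiation), -1.001 to -0.81 (knockdown differentiation), -0.18 to -0.17 (knockdown in MT), -0.25 to 0.0523 (knockdown in MB) and -0.16 to 0.0645 (interaction).

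The median differentiation changes kept their sign under all alternatives run. That of the interaction, -0.0523 without the block, turned to 0.0532 with total library size and 0.056 with the block as well. It was 0.0645 without MB_shCtrl replicate 2 and 0.0307 without MB_shKap1 replicate 1. Against replicate 2 alone, chosen after seeing the data, the differentiation medians were -0.80 in control and -0.81 in knockdown. Depth bears most on Fen1, which had 59 counts in MT_shKap1. Its standard error with the block was 0.322 for knockdown in MT, beside a median of 0.138 over the 35 genes. For the interaction it was 0.379, beside a median of 0.167.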
